A study of Mus musculus with 4 samples.

Results

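The annexins reported here are 8 genes, Anxa1 to Anxa7 and Anxa11, chosen by symbol from the 56832 gene rows of the count tables. All 8 symbols were present in the tables. The samples were 4 RNA sequencing libraries of naive microglia, sorted by flow cytometry as CD11b-positive cells of low to intermediate CD45 from the brains of female C57BL/6 mice without any intervention. The labels number them as replicates of 1 group and give no age and no separate animals, so p-values here speak only to how these samples vary, and that variation could be technical. The study also sorted GFP-labelled graft-derived myeloid cells after transplantation and CSF1R inhibition. Those groups were not analysed here, and no comparison between groups was made.

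Annexins are cytosolic proteins that bind acidic phospholipids of membranes when calcium rises. They share a conserved calcium-binding core and differ in their N-terminal tails, which bind partners such as S100 proteins. In phagocytes they are known from membrane repair, vesicle traffic, the recognition of dying cells and the ending of inflammation, and Anxa3 protein is known from microglia in the rodent brain.

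The libraries held 20360121 to 23292655 reads assigned to genes, and levels are given as CPM, the reads of a gene per 1000000 of these reads. Where a gene had no read, a level up to that of 3 counts (0.129 to 0.147 CPM) stays possible, and this limit covers counting error only. The microglial marker list was high, since all 10 of 10 members reached 1 CPM in each library and their summed level was 28526 to 59469 CPM. Replicates 2 and 3 held more genes with a count (18978 and 18431) than replicates 1 and 4 (14850 and 13944). They also had a higher sum over 18 immediate early genes, at 58819 and 51468 CPM, against 5470 and 5794 CPM in replicates 1 and 4.

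Anxa3 was the most abundant annexin in every library, Anxa5 came next, and the other members lay at mean levels of 12.5 to 75.4 CPM. Together the 8 genes took 0.108% ± 0.0254 (SD, n = 4) of all counts. The share was 0.114% in replicate 1 (95% exact Clopper-Pearson interval 0.113 to 0.116) and 0.0789% in replicate 2 (0.0777 to 0.0800). It was 0.100% in replicate 3 (0.0988 to 0.101) and 0.139% in replicate 4 (0.138 to 0.141). Replicate 4 was thus the highest and replicate 2 the lowest for the family as a whole. The median of the members' mean levels was 57.5 CPM, against 3.02 CPM over the 21681 genes with a count in any library. That gap depends in part on which annexins were chosen as members.

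Of the 8 annexins, 7 reached 1 CPM in every library, which 38.8% of genes with a count did. At 10 CPM in every library there were 6 of 8, against 26.4% of those genes, and at 100 CPM there were 2 of 8, against 5.28%. The members at 100 CPM or more were Anxa3 and Anxa5. The members were chosen with earlier results of these data known. Of the 4 annexins left out (Anxa8, Anxa9, Anxa10 and Anxa13), 0 reached 1 CPM in every library. The shares above therefore depend in part on the choice of members and do not describe the whole family. Anxa2 fell short of 10 CPM in replicate 1, and Anxa11 fell short of 1 CPM in replicate 4.

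**Figure D1:**
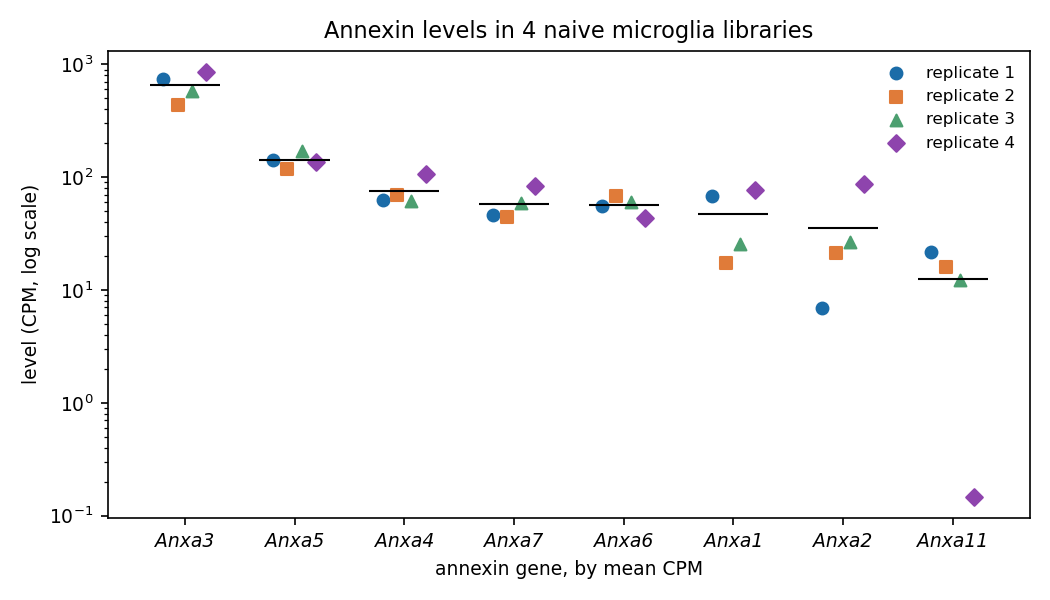
Level of each annexin in CPM on a log axis, with 1 symbol per library and a line at the mean of the 4 libraries. Anxa3 lies above the other members in every library, and the single low point is Anxa11 in replicate 4 at 0.147 CPM.

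Anxa3 gave 737, 434, 585 and 858 CPM in replicates 1 to 4, a mean of 653 ± 184 CPM (SD, n = 4). It stood at rank 185 among the genes with a count, above 99.1% of them. Its share of the annexin counts was 64.6%, 55.0%, 58.4% and 61.6% in replicates 1 to 4, so that in each library it outweighed the other 7 members together. In replicate 2, where this share was lowest, its 95% exact Clopper-Pearson interval was 54.2 to 55.7.

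Anxa5, whose protein binds exposed phosphatidylserine and serves as the standard probe for apoptotic cells, gave 143, 119, 171 and 136 CPM in replicates 1 to 4. Its mean was 142 ± 21.6 CPM (SD, n = 4) at rank 1155, and its coefficient of variation of 0.152 was the smallest of the 8 members. Anxa4, known from membrane traffic in epithelia, gave 62.2, 70.1, 61.6 and 108 CPM, with replicate 4 above the other three. Anxa6, a large annexin with a duplicated core that acts in endocytosis, gave 56.0, 67.5, 60.6 and 43.7 CPM, with replicate 4 the lowest. Anxa7, first named synexin for its part in granule fusion, gave 46.0, 44.0, 58.5 and 84.0 CPM, with replicate 4 again the highest. The means of Anxa4, Anxa7 and Anxa6 were 75.4 ± 21.9, 58.1 ± 18.4 and 57.0 ± 10.01 CPM (SD, n = 4), and their ranges overlapped.

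Anxa1, a glucocorticoid-inducible mediator that dampens inflammation and is abundant in neutrophils, gave 68.8, 17.4, 25.8 and 76.5 CPM in replicates 1 to 4, a mean of 47.1 ± 29.8 (SD, n = 4). Replicates 1 and 4 were high and replicates 2 and 3 low. Anxa2, which joins S100a10 in a membrane-bound complex and binds plasminogen activator at the cell surface, gave 6.94, 21.2, 26.8 and 86.7 CPM. Replicate 4 stood 12.5-fold above replicate 1, and replicates 2 and 3 lay between. Its mean of 35.4 ± 35.2 CPM (SD, n = 4) rested on replicate 4, without which it was 18.3 CPM.

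Promoter sequence was available for 6 of the 8 members in 8 windows of 300 bases, from 250 before to 50 after an annotated start (RefSeq, GRCm38.p6). Those of Anxa1 and Anxa2, which varied most of the 7 members at 1 CPM or more in all libraries, are shown over the 250 bases before the start beside that of Anxa5, the member with the smallest coefficient of variation. Capitals mark the TATA box letters TATAAA and the letters TGANTCA bound by AP-1 factors, searched on both strands. The motifs were chosen after the levels were seen.
Anxa1 (chr19:20390672-20390921, minus strand): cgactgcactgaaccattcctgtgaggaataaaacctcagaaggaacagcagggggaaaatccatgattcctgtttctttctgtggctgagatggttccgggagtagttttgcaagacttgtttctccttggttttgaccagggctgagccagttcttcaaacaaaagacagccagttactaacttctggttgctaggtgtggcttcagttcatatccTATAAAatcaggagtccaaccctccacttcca
Anxa2 (chr9:69453433-69453682, plus strand): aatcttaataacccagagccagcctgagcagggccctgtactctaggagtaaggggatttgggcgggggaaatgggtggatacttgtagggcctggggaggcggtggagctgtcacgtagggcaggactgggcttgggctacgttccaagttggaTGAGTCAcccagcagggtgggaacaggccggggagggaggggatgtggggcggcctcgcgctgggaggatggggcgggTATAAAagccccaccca
Anxa5 (chr3:36475888-36476137, minus strand): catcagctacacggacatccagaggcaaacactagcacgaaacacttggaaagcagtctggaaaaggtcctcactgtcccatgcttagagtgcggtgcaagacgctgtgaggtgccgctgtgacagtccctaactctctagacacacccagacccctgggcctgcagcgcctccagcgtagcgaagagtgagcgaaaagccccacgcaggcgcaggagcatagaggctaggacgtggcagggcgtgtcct

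TATAAA began 32 bases before the start in Anxa1 and 17 bases before it in Anxa2, and was in no window of Anxa4, Anxa5, Anxa7 or Anxa11. Of all 32851 promoter windows, 13.6% held it. TGANTCA, as TGAGTCA, began 95 bases before the start of Anxa2 alone among the 6, and 7.81% of all windows held it. The windows of Anxa1, Anxa2 and Anxa5 had 47.3%, 63.7% and 60.3% GC with 3, 13 and 16 CG pairs, against medians of 52.7% and 7 over all windows. The letters CCAAT and GAGGAAGT, the latter a form of the PU.1 motif, were in none of the 8 windows, against 37.4% and 3.20% of all windows. A match in these letters is a description and not a measured binding site.

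Anxa11, which links RNA granules to lysosomes and takes part in cell division, gave 21.8, 15.9, 12.1 and 0.147 CPM in replicates 1 to 4. The underlying counts were 450, 359, 283 and 3 reads. Replicate 1 exceeded replicate 4 by a ratio of 148, with a counting interval of 50.4 to 721, and replicate 3 exceeded it by 82.5 (27.9 to 402). Of 6869 genes at 10 CPM or more in replicates 1 to 3, 4.60% had 3 counts or fewer in replicate 4, and Anxa11 was the 1 annexin among the 7 that met the first condition. The same count was 44 of 6091 genes for replicate 1 and 0 genes for replicates 2 and 3. Anxa11os, an antisense transcript that shares 113 bases of exon with Anxa11 in the GENCODE annotation of GRCm38, had 55, 0, 21 and 0 counts. The strand setting of the counting is not given in the sources used here, so reads of this overlap cannot be assigned to either gene.

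Because longer transcripts give more reads, members were ordered by CPM per kb of exon, using the union of annotated exons. On that scale the means were 179 ± 50.6 for Anxa3, 80.1 ± 12.1 for Anxa5, 19.4 ± 3.42 for Anxa6 and 16.2 ± 4.71 for Anxa4 (SD, n = 4). They were 16.2 ± 10.2 for Anxa1, 9.70 ± 3.07 for Anxa7, 9.49 ± 9.43 for Anxa2 and 3.03 ± 2.21 for Anxa11 (SD, n = 4). Anxa3 then made up 57.2%, 48.2%, 50.2% and 56.9% of the summed annexin level in replicates 1 to 4.

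**Figure D2:**
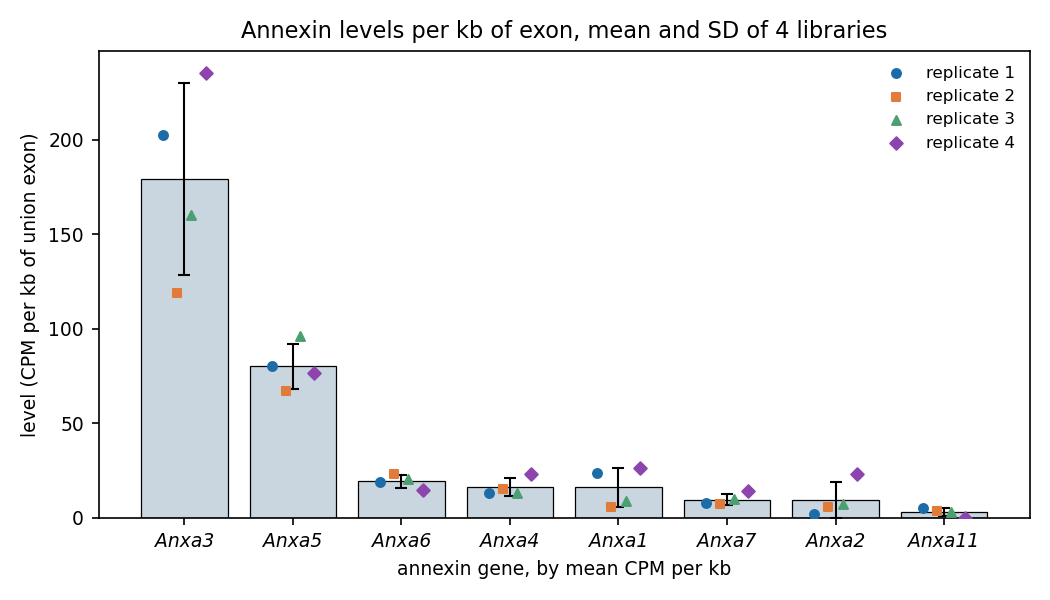
Mean level per kb of union exon for each annexin (bars), with the SD of 4 libraries as error bars and each library as a symbol. Every point of Anxa3 and Anxa5 lies above every point of the other 6 members, and most but not all pairs of those 6 overlap.

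The steps at the top of this order held in every library. Anxa3 exceeded Anxa5 by 1.33, 0.83, 0.74 and 1.62 on the log2 scale in replicates 1 to 4, and Anxa5 exceeded Anxa6 by 2.07, 1.54, 2.22 and 2.36. Below Anxa5, no neighbours in the order differed beyond their spread. Anxa6 over Anxa4 gave a mean log2 ratio of 0.28 ± 0.61, Anxa4 over Anxa1 0.23 ± 0.93, Anxa1 over Anxa7 0.52 ± 0.91 and Anxa7 over Anxa2 0.53 ± 1.14 (SD, n = 4). Each of these changed sign between libraries. The log2 ratio of Anxa2 over Anxa11 was -1.50, 0.56 and 1.29 in the first 3 replicates, while Anxa11 had 3 counts in replicate 4.

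Over all 28 pairs of annexins, 20 kept 1 order in 4 of 4 libraries and 8 were mixed. Anxa3 was above each of the other 7 members, and Anxa5 above each of the remaining 6, in every library. Anxa4 over Anxa7 gave 0.80, 1.04, 0.44 and 0.73 on the log2 scale. Anxa6 over Anxa7 gave 1.32, 1.65, 1.08 and 0.09, an order that held only per kb of union exon: the mean of 1.04 was 0.23 per kb of the longest transcript and 0.0033 without a length correction, with mixed signs in both. An exact permutation test that flips signs over the 4 libraries, two-sided, gave p = 0.13 for each pair of 1 order, adjusted p = 0.18 over the 34 pairs tested here and below. With 16 sign patterns that p is the smallest the test can give, so no pair could pass 0.05.

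The length taken for a gene affects this scale. The union of exons was 3643 bases for Anxa3, whose longest annotated transcript has 1595, and 1777 against 1731 bases for Anxa5. The order of Anxa4 and Anxa6 depended on this choice, since the mean log2 ratio of Anxa4 over Anxa6 was -0.28 per kb of union exon, 0.31 per kb of the longest transcript and 0.38 without a length correction.

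The spread of each gene between libraries was tested with an intercept-only edgeR fit over 9075 genes, which sets a gene's quasi-likelihood dispersion against the trend at its level. Of the 7 annexins that entered the test, 0 had a spread above the trend after adjustment, as did 0% of all genes tested. At an unadjusted p under 0.05 there were 0 of 7 annexins and 4.30% of all genes. The 17 immediate early genes tested all had an unadjusted p under 0.05, yet 0 were called after adjustment. So 0 called, here and in the lists below, does not show that a spread is small. DESeq2 called 0 dispersion outliers among the same genes. Anxa11 did not enter, because the filter on low counts requires about the same minimum in every library.

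Anxa2 and Anxa1 lay above the trend by 2.27 and 1.48 on the log2 scale, with a Benjamini-Hochberg adjusted p = 0.94 each in edgeR. Anxa3 lay on the trend at 0.03, Anxa7 at -0.83, Anxa4 at -0.89, Anxa6 at -1.42 and Anxa5 at -1.45. The median of the 7 was -0.83, against -0.08 over all genes tested. Anxa1 and Anxa2 were the 2 of 7 members whose highest library was at least 4 times the lowest, as for 25.0% of genes tested. The median of that ratio was 1.91 over the 7 annexins and 2.43 over all genes tested.

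**Figure D3:**
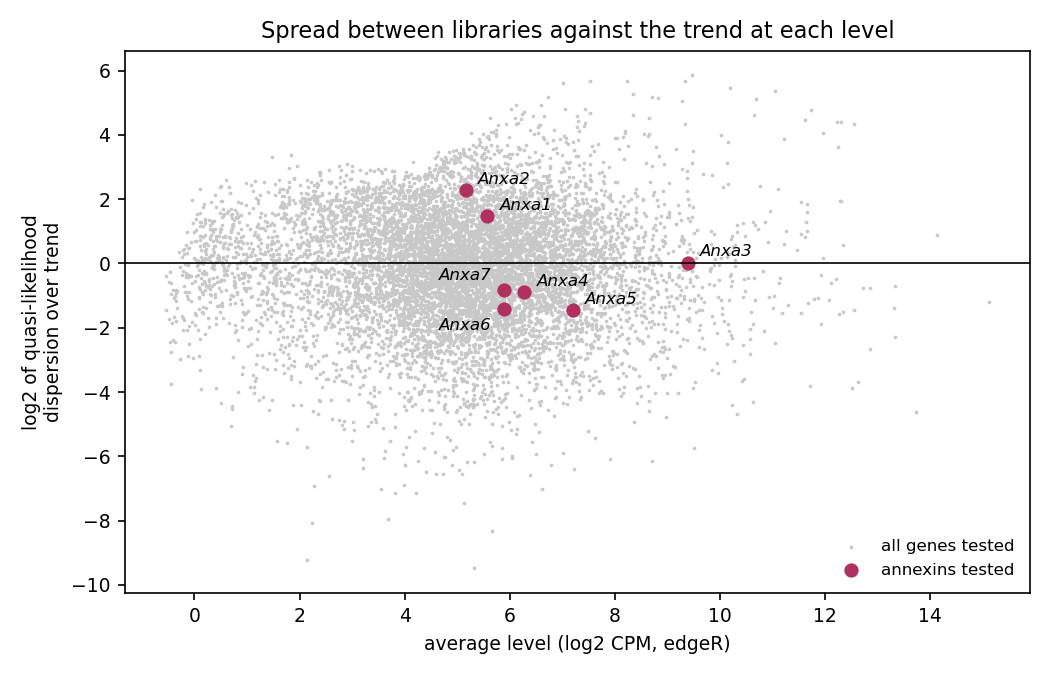
Quasi-likelihood dispersion over its trend (log2, vertical axis) against the average level (log2 CPM, horizontal axis) for 9075 genes (grey) and the 7 annexins tested (red). Anxa2 at 2.27 and Anxa1 at 1.48 lie above the line of the trend and inside the cloud of genes, and Anxa4, Anxa5, Anxa6 and Anxa7 lie below the line.

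The libraries in which Anxa1 was high also held more neutrophil transcripts. The sum over 12 neutrophil markers was 1529, 301, 288 and 2443 CPM in replicates 1 to 4, of which 10 of 12 reached 1 CPM in each library, with Ly6g at 0 counts in replicates 3 and 4. Of the 12 members, 10 were higher in replicates 1 and 4 than in replicates 2 and 3, and the exceptions were Ly6g and Elane, the latter at 14.7, 9.17, 8.41 and 1.38 CPM. The granule gene Ngp gave 385, 67.6, 76.2 and 521 CPM. The microglial list sum moved the same way, at 55264, 28526, 29544 and 59469 CPM. So did the B cell list of 6 genes, at 86.1, 22.3, 26.9 and 62.0 CPM with Ms4a1 at 0 counts, and the red blood cell list of 6 genes, at 42.4, 19.9, 17.1 and 76.9 CPM. Anxa3, which neutrophils also express, was highest in replicates 1 and 4 as well. The part of RNA from these blood cells in the levels of Anxa1 and Anxa3 was not tested. In bulk samples, more cells of a type and more RNA per cell cannot be told apart.

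A pair of lists was lowest in replicate 1 and highest in replicate 4, as Anxa2 was. The sum over 6 ependymal and choroid plexus markers was 442, 904, 902 and 2050 CPM, nearly all of it Ttr, and 1 of 6 members reached 1 CPM in every library. Ttr and Folr1 were highest in replicate 4, and the other 4 members were not. The sum over 7 mural cell and fibroblast markers was 23.3, 92.8, 83.9 and 102 CPM, with 0 of 7 members at 1 CPM in every library. That order rested on 2 of the 7 members, Rgs5 and Acta2, which gave 0.146 and 0.0971 CPM in replicate 1 and 72.3 and 28.5 CPM in replicate 4. The other 5 members were not highest in replicate 4, and Lum went the other way at 17.5, 5.67, 4.08 and 0.0982 CPM. The endothelial list of 7 genes was also lowest in replicate 1, at 90.7, 182, 153 and 123 CPM. Of its members, Ly6c1 and Itm2a were lowest there, while Flt1 and Slco1a4 were lowest in replicate 4, at 0.491 and 0.982 CPM. Cldn5 and Pecam1 were lowest in neither, and Cdh5 had 0 CPM in both. The border-associated macrophage, oligodendrocyte, neuron, T and NK cell and immediate early lists were lowest in replicate 1 too. None of these was highest in replicate 4. The monocyte list of 8 genes was not lowest in replicate 1, at 185, 148, 163 and 208 CPM. The part of RNA from any of these cell types in the Anxa2 level was not tested.

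**Figure D4:**
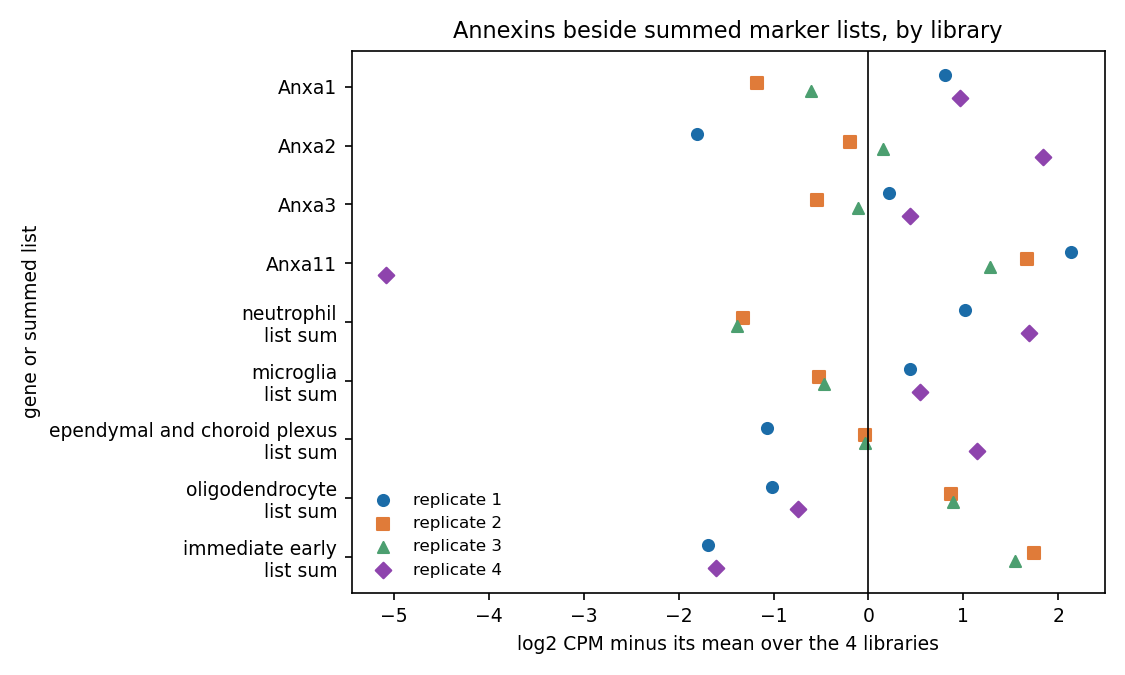
Log2 CPM minus its mean over the 4 libraries for 4 annexins and for the summed CPM of 5 gene lists, with 1 symbol per library. Replicates 1 and 4 lie to the right for Anxa1, Anxa3 and the neutrophil and microglia lists and to the left for the immediate early list, while Anxa2 is lowest in replicate 1 and highest in replicate 4.

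Of the other annexin genes, Anxa9 passed 1 CPM in replicate 4 alone, and the rest stayed below it in every library. Anxa8 and Anxa10 had 0 counts in every library, and Anxa13 had 0, 4, 1 and 0 counts. Anxa9, an annexin whose core has lost calcium-binding sites, had 0, 15, 1 and 364 counts, or 17.9 CPM in replicate 4. That level was at least 123-fold higher than the floor of 3 counts in replicate 1. Of 7241 genes at 10 CPM or more in replicate 4, 0.732% were under 1 CPM in each of the other libraries, as Anxa9 was, and 0 of the 7 reported annexins at that level were. In the GENCODE annotation of GRCm38, 7.96% of the Anxa9 exon bases are shared with other genes, among them Mindy1, which gave 14.6, 22.1, 11.1 and 14.0 CPM and was not higher in replicate 4.

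The S100 genes whose proteins bind annexin tails were present at low levels, and 4 of 4 entered the test of spread with 0 called. S100a10, the partner of Anxa2, gave 23.4, 8.06, 17.0 and 11.6 CPM in replicates 1 to 4, with replicate 1 the highest. Per kb of exon, Anxa2 over S100a10 was -3.37, -0.23, -0.97 and 1.28 on the log2 scale, so the pair had no fixed order. Anxa2 and its partner thus stood at opposite ends in replicate 1, where Anxa2 was lowest. S100a11, the partner of Anxa1, gave 14.1, 9.70, 13.4 and 22.5 CPM and exceeded Anxa1 per kb in 4 of 4 libraries, with a log2 ratio of Anxa1 over S100a11 of -1.05 ± 0.69 (SD, n = 4). That order rested on the length correction, without which the ratio was 1.46.

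S100a6, which binds Anxa11, gave 6.26, 5.27, 4.21 and 12.8 CPM. Per kb of exon, Anxa11 over S100a6 was 0.20, -0.01 and -0.07 on the log2 scale in replicates 1 to 3, and in replicate 4 Anxa11 had 3 counts. S100a4, another ligand of Anxa2, stood at 1.25 ± 0.556 CPM (SD, n = 4), and Anxa2 over S100a4 was -0.39, 2.02, 2.33 and 2.77 per kb of exon on the log2 scale. The calcium-binding proteins sorcin and ALG-2, encoded by Sri and Pdcd6, bind Anxa7 and Anxa11. Sri stood at 146 ± 10.3 CPM and exceeded Anxa7 per kb in 4 of 4 libraries, with Anxa7 over Sri at -1.68 ± 0.37 on the log2 scale (SD, n = 4). Pdcd6 stood at 63.7 ± 15.98 CPM (SD, n = 4), and Anxa11 over Pdcd6 was -1.60, -2.46 and -3.04 in replicates 1 to 3. Of these 6 partner pairs, 3 kept 1 order in every library.

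Formyl peptide receptors, through which secreted Anxa1 acts, were scarce. Fpr1 gave 5.24, 0.266, 1.46 and 7.96 CPM, high in replicates 1 and 4 as Anxa1 and the neutrophil list were. Fpr2, the main receptor of Anxa1, had 0 counts in replicates 1 to 3 and 7.17 CPM in replicate 4, at least 49.3-fold higher than the floor of 3 counts in replicate 1. The other 5 receptor genes had 0 counts in every library. Genes of this family are similar in sequence, and reads shared between copies could be split or dropped. Pla2g4a, the cytosolic phospholipase A2 that annexins inhibit, was steady at 126 ± 10.3 CPM (SD, n = 4), and Pla2g4b and Pla2g4c had 0 counts.

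Plasminogen activation, which Anxa2 is known to localise, was represented mainly by its receptors. The urokinase receptor gene Plaur gave 26.5, 81.0, 89.2 and 70.7 CPM and the plasminogen receptor gene Plgrkt 45.2, 67.8, 65.7 and 62.8 CPM, both lowest in replicate 1, as Anxa2 was. The tissue activator gene Plat gave 0, 23.1, 25.5 and 0.0491 CPM, high in replicates 2 and 3. Plau stood at 1.35 ± 1.28 CPM (SD, n = 4), and Plg had 0 counts in every library. Of the 6 genes, 3 entered the test and 0 were called.

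Of 11 membrane repair genes, 6 reached 1 CPM in every library, 6 entered the test and 0 were called. The calpain small subunit gene Capns1 gave 90.4, 97.0, 88.1 and 147 CPM, and Pdcd6ip, an ESCRT adaptor, 83.4, 123, 119 and 31.8 CPM. Capn2, Chmp4b, Ahnak and Myof stood at 12.9 ± 7.83, 4.896 ± 2.63, 8.38 ± 7.96 and 3.08 ± 3.53 CPM (SD, n = 4), each higher in replicates 2 and 3 than in replicates 1 and 4. Capn1 had a count only in replicate 2, at 2.26 CPM, and Dysf and Trim72 had 0 counts.

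Phosphatidylserine, the lipid that Anxa5 binds, is moved between membrane leaflets by scramblases and flippases. Of 7 such genes, 5 entered the test and 0 were called. The flippase subunit gene Tmem30a stood at 384 ± 114 CPM, the scramblase gene Ano6 at 55.1 ± 13.4, Xkr8 at 13.9 ± 6.36 and Plscr1 at 9.95 ± 4.11 (SD, n = 4). The flippase gene Atp11a gave 0, 10.1, 6.14 and 0.196 CPM, high in replicates 2 and 3. Xkr4 had a mean under 1 CPM.

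Genes with a pattern like that of each annexin were ranked by the Euclidean distance between centred log2(CPM + 0.5) values over the 4 libraries, among the 8174 genes with a mean of at least 10 CPM. Nearest to Anxa1 were Dera at 0.22, the neutrophil marker Lcn2 at 0.28 and Abt1 at 0.30, against a median distance of 1.998 to all genes. Near to Anxa2 were Prss34 at 0.26 and Recql5 at 0.29 (median 2.71). Nearest to Anxa11 were Abcb10 at 0.09, Vps13d and Adcy9 at 0.19 each (median 4.18), all of them at 0 to 0.246 CPM in replicate 4.

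Nearest to Anxa3 were Cnep1r1 at 0.04, Mrpl46 at 0.05 and Selenos at 0.06 (median 1.19). Anxa4 was nearest to Ip6k1, Cd52 and Rps14 (0.04 to 0.06), and Anxa5 to Cdk2ap2, Mdh2 and Ywhah (0.11 to 0.12). Anxa6 was nearest to Scamp1, Sharpin and Pdia5 (0.03 to 0.11), and Anxa7 to Tmem175, Mif4gd and Rpp25l (0.05 to 0.07). With 4 libraries and 8174 genes, small distances arise for many genes, and these are descriptions without a test.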

How the data were processed

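Each library has 1 deposited table of whole read counts by gene symbol, which the authors left unnormalised. The tools listed in the submitters' processing notes are HTSeq 0.11.2, SAMtools 1.16.1 and STAR 2.7.10a, with GRCm39 as the build. For annotation, strand setting and filters, the sources used here give nothing. The last 5 rows of each table, which name no gene, held 20.8% ± 1.28 (SD, n = 4) of the listed reads and were left out of totals and tests. In chi-square tests of counts, 70.5% to 87.4% of tested genes differed between any pair of libraries at p under 0.05, so all 4 were kept as separate samples. CPM were computed from the gene totals.

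Exon lengths were matched by symbol from a GENCODE annotation of GRCm38, for 98.3% of the counts. Spread was tested with edgeR 4.0.16 in R 4.3.3 (filterByExpr with a minimum count of 10, TMM, an intercept-only quasi-likelihood fit and an upper-tail F test, with Benjamini-Hochberg adjustment over 9075 genes). DESeq2 1.42.0 supplied alternatives. The spread test and the sign-flip test were tested on simulated data. Python 3.11.15 with scipy 1.17.1 did the rest. Log2 ratios used 0.5 added to each count.

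The members and lists were chosen with earlier results of these data known. Named genes are all members, the other annexins and listed partners at a mean of 1 CPM or more, and the 3 likest genes per member. Some genes that this rule names are not reported here. Mindy1 and Anxa11os were added after their values were seen. Alternatives were other scaling, filters, priors, lengths and added counts, and leaving out each library. Promoter sequences come from RefSeq (GRCm38.p6), matched by symbol. The marker lists whose sums are not given above had summed CPM of 0.0485 to 8.63 (T and NK cell), 307 to 881 (border-associated macrophage), 486 to 1819 (oligodendrocyte), 240.1 to 504 (astrocyte) and 12.4 to 34.0 (neuron).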

Additional observations from a re-analysis of the deposited data

Results flagged for a closer look

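Among 71 values checked, 12 had 1 library far from the other three. The rule flags about 1 in 20 by chance only for independent values with a normal spread. These values are CPM and ratios that share genes and libraries, and the share flagged over all genes was not computed. The number flagged is therefore not read as an excess. In single genes the far library was replicate 4, for Anxa9 at 17.9 CPM, Fpr2 at 7.17 CPM and Capns1 at 147 CPM. Among ratios per kb on the log2 scale, Anxa1 over Anxa2 was 3.66 and Anxa3 over Anxa7 was 4.72 in replicate 1. In replicate 4, Anxa4 over Anxa6 was 0.64.

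The other flagged ratios all hold Anxa11 in replicate 4, where it had 3 counts. The log2 values there were 12.47 for Anxa3, 9.12 for Anxa4, 10.85 for Anxa5, 8.49 for Anxa6 and 8.40 for Anxa7, each over Anxa11, and -7.81 for Anxa11 over S100a6. These sizes depend on the 0.5 added to each count, and they share 1 gene and 1 library.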

How the results depend on the processing

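The count of genes and of annexins called for a spread above the trend was 0 under each alternative run, with the limit given above. The annexin share of counts was 0.0977% to 0.118% when 1 library was left out. The number of pairs with 1 order was 23 of 34, 24 with either other length choice and 23 with 1 added to each count. It was 23 to 28 without 1 library, where the number cannot fall because a kept order stays in any fewer libraries. Mean levels of the 8 annexins moved by less than 1 SD under other scaling. Leaving out 1 of 4 libraries can never move a mean by 1 SD, so that measure cannot show stability there. The Anxa2 mean of 35.4 CPM was 18.3 CPM without replicate 4 and 44.9 CPM without replicate 1. Without a length correction, 4 mean log2 ratios changed sign: Anxa1 over Anxa7 (-0.52), Anxa4 over Anxa6 (0.38), Anxa2 over S100a10 (0.80) and Anxa1 over S100a11 (1.46). Per kb of the longest transcript, Anxa1 over Anxa6 (0.051) and Anxa4 over Anxa6 (0.31) did. With 1 library left out, Anxa1 over Anxa4 ranged from -0.58 to 0.14 (0.14 without replicate 2), Anxa2 over S100a10 from -1.52 to 0.027 (0.027 without replicate 1) and Anxa11 over S100a6 from -2.63 to 0.041 (0.041 without replicate 4). The order of Anxa6 over Anxa7 in every library was lost under both other length choices, that of Anxa1 over Anxa2 without a length correction, and that of Anxa1 over S100a11 per kb of the longest transcript. The cause was not tested. No paired analysis was possible because there is 1 group. With 4 libraries, order tests cannot pass 0.05.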
